A study of Mus musculus with 16 samples.

Results

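Transcripts of the V(D)J recombinase and of the non-homologous end-joining enzymes were followed in mouse pre-B cells in which signalling through BLNK was switched on. The members are 10 genes chosen by name among the 38918 features of the deposited tables. They are Rag1 and Rag2, Dntt, Dclre1c and Prkdc, Xrcc5 and Xrcc6, and Lig4, Xrcc4 and Nhej1. All 10 were found by symbol, and 9 of the 10 reached 5 counts per 1000000 exon reads (CPM) in at least 1 condition. Nhej1 stayed under that floor.

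V(D)J recombination assembles immunoglobulin and T cell receptor genes from separate gene segments. RAG1 and RAG2 together cut the DNA at the segment borders and leave hairpin-sealed coding ends. The end-joining machinery then binds the ends, opens the hairpins and ligates them, and the template-independent polymerase encoded by Dntt adds nucleotides at the junctions. Pre-B cells have finished this process at the heavy chain locus and start it at the light chain loci, and the recombinase genes are known to be turned down while pre-B cells divide and turned up again afterwards.

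The 4 conditions were cells stimulated for 0.5, 1.5 and 5 h and a control, and the study set out to find genes that respond to the pre-B cell receptor. All 4 groups, the control included, were labelled as preB-cells of the Blnk-/- genotype with retroviral overexpression of BLNK_ERt2. BLNK is the adaptor that couples the receptor to its downstream enzymes, and the ERt2 domain makes the fused protein depend on tamoxifen. A retroviral vector drives the fusion in place of the cells' own Blnk promoter, and the sources do not state whether the control cells received the drug's vehicle. They also do not state the number of mice, clones or cultures behind each condition.

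The 16 samples were 4 sequencing lanes of each of 4 libraries. With a single library behind each condition the conditions could not be tested against each other, and every interval below covers counting error only. The libraries held 30746189 to 34533362 total exon reads, of which 84 to 84.6% were uniquely placed. The rule for calling a gene higher or lower was a ratio of 2-fold or more between levels to which 1 CPM had been added, and a level of 5 CPM or more on the higher side. Log2 ratios include this 1 CPM. Folds do not, and their 95% intervals are exact (Clopper-Pearson). The labelled cell type was checked against markers: 12 of 13 pre-B and B lineage markers found reached 5 CPM, and their summed level was 11194 to 13291 CPM. T cell markers summed to 41 to 45.6 CPM, most of it Lck at 35.8 to 42.2 CPM. Zap70 also reached 5 CPM, and Cd4 was at 0. Myeloid markers summed to 39.6 to 73.5 CPM, most of it Itgam at 35.9 to 69 CPM, with Ly6g at 0. In such bulk RNA, fewer cells of a type and less RNA per cell cannot be told apart.

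The promoter windows of the recombinase genes, of Dntt and of Dclre1c are shown because these genes had the largest ratios among the members. The sequences are RefSeq windows on GRCm38.p6, running from 250 bases before to 50 bases after the annotated start, 5′ to 3′ along the gene. Capitals mark CAGCTG, an E-box of the E-protein type, CCAAT or its reverse complement ATTGG, bound by NF-Y, and TGGGAGA, the LyF-1 site bound by Ikaros family proteins.
Rag1, chr2:101649483-101649782, minus strand: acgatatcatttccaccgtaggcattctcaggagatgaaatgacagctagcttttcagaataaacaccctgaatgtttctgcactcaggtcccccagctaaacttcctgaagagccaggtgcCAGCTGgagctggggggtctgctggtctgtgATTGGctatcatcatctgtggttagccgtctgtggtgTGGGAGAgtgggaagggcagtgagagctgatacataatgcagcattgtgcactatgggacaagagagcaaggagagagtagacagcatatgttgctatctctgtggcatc
Rag2, chr2:101624462-101624761, plus strand: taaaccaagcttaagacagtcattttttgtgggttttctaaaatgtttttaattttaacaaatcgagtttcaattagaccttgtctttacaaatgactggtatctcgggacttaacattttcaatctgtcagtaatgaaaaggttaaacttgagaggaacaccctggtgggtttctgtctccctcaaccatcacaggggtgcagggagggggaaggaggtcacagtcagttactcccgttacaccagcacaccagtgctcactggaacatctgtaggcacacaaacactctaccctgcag
Dntt, chr19:41029025-41029324, plus strand: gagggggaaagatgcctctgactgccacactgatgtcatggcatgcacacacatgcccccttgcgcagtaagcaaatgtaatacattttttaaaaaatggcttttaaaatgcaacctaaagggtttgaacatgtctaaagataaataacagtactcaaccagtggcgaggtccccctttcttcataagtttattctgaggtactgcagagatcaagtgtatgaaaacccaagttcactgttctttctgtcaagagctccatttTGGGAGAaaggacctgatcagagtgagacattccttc
Dclre1c, chr2:3423881-3424180, plus strand: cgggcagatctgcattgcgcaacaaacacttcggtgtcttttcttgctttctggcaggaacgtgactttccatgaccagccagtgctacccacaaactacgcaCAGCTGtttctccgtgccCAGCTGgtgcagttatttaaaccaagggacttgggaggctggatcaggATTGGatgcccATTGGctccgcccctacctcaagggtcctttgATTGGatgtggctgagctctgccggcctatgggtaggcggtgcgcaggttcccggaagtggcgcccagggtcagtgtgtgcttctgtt

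Windows were found for 9 of the 10 members, and each motif was searched on both strands in all 32851 windows of the table. CAGCTG stood in 16.3% of all windows, CCAAT in 37.4% and TGGGAGA in 7.38%. TGGGAGA was chosen with the members' sequences in view, so its share does not show how unusual its matches are. The Rag1 window held 1 match of each of the 3. The Dclre1c window held 2 matches of CAGCTG and 3 of CCAAT in its reverse form, all 5 before the annotated start. The Dntt window held 1 match of TGGGAGA, 13 bases past the start, and the Rag2 window held no match. Among members not printed, CAGCTG also matched in both windows of Lig4, and CCAAT in its reverse form in those of Xrcc5 and Xrcc6. TGTTTAC, a FoxO site found in 3.65% of windows, and GCGTGGGCG, an Egr site found in 0.612%, matched in none of the members' windows. CACGTG, the E-box bound by MYC and USF and found in 7.15% of windows, matched in that of Xrcc5 alone. A match describes letters in a window and no binding was measured.

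Few members passed the 2-fold rule after stimulation. At 0.5 h no member of the 9 measured from 5 CPM was called, while 0.305% of all 9516 features at that floor were. At 1.5 h Dclre1c was called higher and Rag1 lower, where 0.641% of 9512 features were called higher and 0.21% lower, 0.852% in all. At 5 h Dntt was the 1 member called, on the lower side, where 0.399% of 9520 features were called lower and 0.735% in either direction. Between 1.5 and 0.5 h and between 5 and 1.5 h no member was called, with 0.411% and 0.54% of all features called in either direction. The members' median log2 ratios against control were -0.14 at 0.5 h, -0.29 at 1.5 h and -0.19 at 5 h. In these comparisons 6, 8 and 7 of the 10 lay below 0, as did 51.1, 51.1 and 49.5% of all features at 5 CPM. With 10 genes, the counts at 0.5 and 5 h are near that share. All of these counts include Nhej1, which stayed under 5 CPM, and Rag1 and Rag2 lie in 1 locus, as described below. The medians of all features at the same times lay between -0.01 and 0.00. The 3 comparisons against control share 1 control library, so their agreement is not independent.

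**Figure D1:**
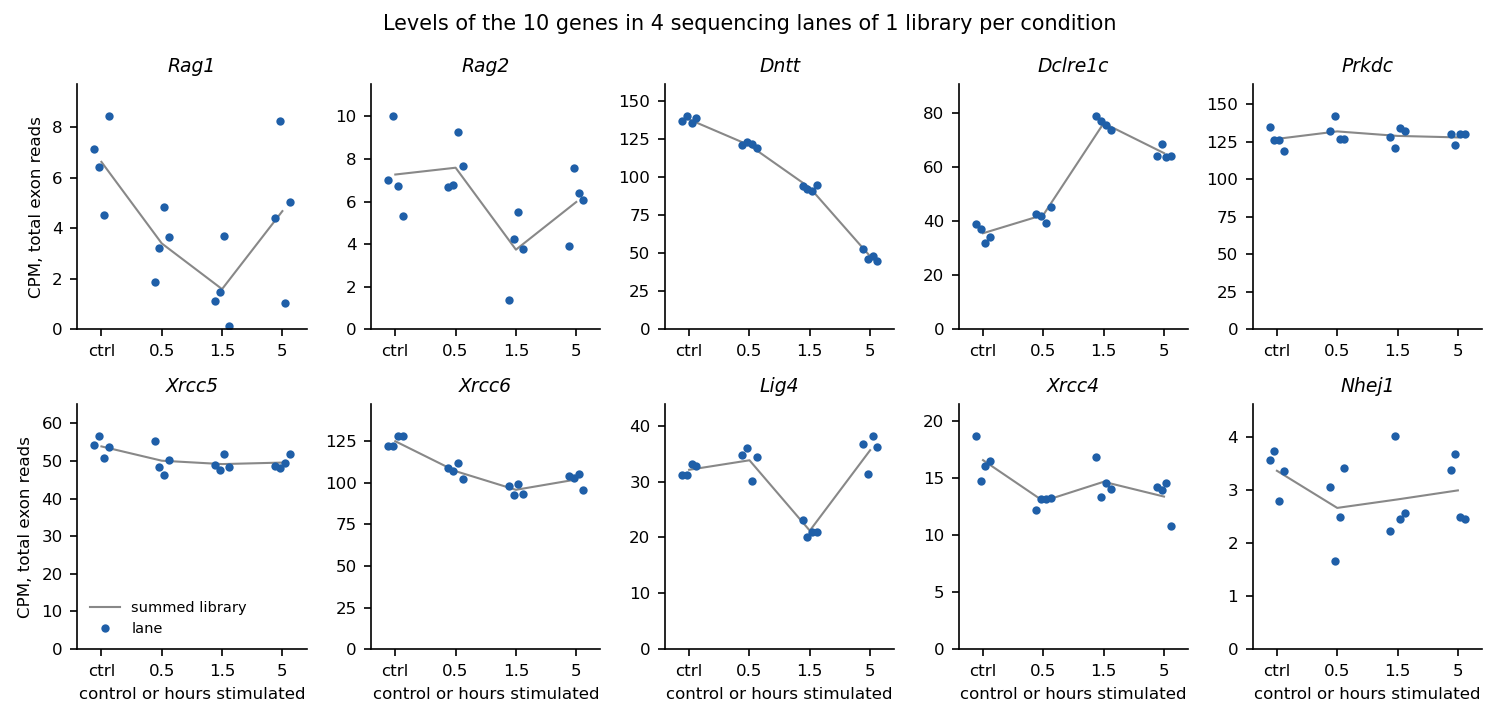
CPM of total exon reads of the 10 genes (vertical axes, each starting at 0) in the control and after 0.5, 1.5 and 5 h of stimulation; points are the 4 lanes of 1 library and the grey line joins the summed libraries. Dntt was lower at each later time, Dclre1c was above and Lig4 below control at 1.5 h, Prkdc stayed near 130 CPM in all 4 libraries, and the lanes of Rag1 and Rag2 scattered widely.

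Rag1 and Rag2 are the catalytic and the regulatory subunit of the recombinase. By the total exon reads counted under them, both were the lowest members per exon length in control cells. Any of their reads counted under an overlapping feature, described below, are missing from these levels, which can thus be too low. Rag1 had 6.63 CPM in control cells, 3.4 CPM at 0.5 h, 1.59 CPM at 1.5 h and 4.68 CPM at 5 h. Rag2 had 7.27, 7.59, 3.74 and 5.98 CPM in the same order. The lowest level of both genes was thus at 1.5 h, and at 0.5 h Rag1 was 1.95-fold lower (95% interval 1.55 to 2.46) while Rag2 was 1.04-fold the control (0.874 to 1.25). Rag2 was 1.94-fold lower than control at 1.5 h (1.56 to 2.43) and did not reach the 2-fold rule. Between 5 h and 1.5 h Rag1 was 2.94-fold higher (2.13 to 4.12), but its level at 5 h was under the floor of the rule.

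The lanes of these libraries did not give the same Rag1 value. At 1.5 h the lanes held 9, 12, 30 and 1 total exon reads of Rag1, and at 5 h they held 34, 63, 8 and 39. At 5 h the lanes ran from 1.04 to 8.25 CPM and overlapped those of the control, which ran from 4.53 to 8.43 CPM. The chi-square per degree of freedom between lanes reached 14.3 for Rag1 at 5 h and 6.62 for Rag2 at 1.5 h. For the 8 members other than Rag1 and Rag2 it was 0.181 to 3.39. Between 5 h and 1.5 h the same-lane log2 ratios of Rag1 ran from -1.20 to 2.43. Such spread exceeds counting error, so the intervals given above for Rag1 and Rag2 are too narrow even within a library. The uniquely placed exon reads of Rag1 were too few to show whether they shared this spread: the same lanes held 0, 1, 2 and 0 at 1.5 h and 3, 5, 0 and 4 at 5 h. With each lane left out in turn, the log2 ratio of Rag1 at 1.5 h against control was -2.13 without lane 3 and -1.19 without lane 4. Without lane 3, Rag1 was also called lower at 0.5 h, at -1.09, and Rag2 at 1.5 h, at -1.03. In uniquely placed exon reads both genes stayed under 5 CPM in every library, so neither could be called.

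In the deposited tables both genes lie wholly inside another feature. Rag1 spans chr2:101638282-101649501 on the minus strand and Rag2 spans chr2:101624718-101632529 on the plus strand of mm10. The protein-coding feature B230118H07Rik spans chr2:101560781-101649532 on the minus strand and covers 100% of each. Its last base, 101649532, is also the RefSeq start of Rag1 in the window printed above. Each uniquely placed exon read of Rag1 (17 in control cells, then 10, 3 and 12) was an exon-exon junction read, and so was each of Rag2 (52, then 53, 28 and 31). No read within a single exon of either gene was counted as unique.

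Low shares of uniquely placed reads were frequent among nested features. Among features with at least 5 CPM in control cells, the 204 that lie inside another feature had a median of 31.9% uniquely placed exon reads (quartiles 16.8 and 60.8%), and in the median feature 100% of those were junction reads. The 5285 features without any overlap had a median of 100% uniquely placed reads, of which 18.4% were junction reads. The tables do not say how a read inside both Rag1 and B230118H07Rik was given to 1 of them, and whether this sets the lane spread of Rag1 was not tested.

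Most reads of this locus were counted under B230118H07Rik, and 95.7% of those in control cells lay outside its exons. In control cells B230118H07Rik had 13 uniquely placed junction reads, against 17 of Rag1 and 52 of Rag2. It had 6475 gene reads in control cells, 4466 at 0.5 h, 1710 at 1.5 h and 4145 at 5 h, of which 4.94 to 7.72% were uniquely placed, against 237 gene reads of Rag1 and 283 of Rag2 in control cells. Summed over the 3 features, gene reads that were not uniquely placed came to 191 per 1000000 exon reads in control cells, 134 at 0.5 h, 53.2 at 1.5 h and 137 at 5 h. The lanes of this sum were close together: 187 to 195 in control cells, 130 to 140 at 0.5 h, 51.2 to 55.7 at 1.5 h and 130 to 141 at 5 h. Its chi-square per degree of freedom between lanes was 0.546 to 1.57.

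Read over the whole locus, the difference from control was largest at 1.5 h and smaller at 0.5 and 5 h. The sum was 1.43-fold lower than control at 0.5 h (1.38 to 1.49), 3.6-fold lower at 1.5 h (3.41 to 3.8) and 1.39-fold lower at 5 h (1.34 to 1.45). Between 5 h and 1.5 h it was 2.58-fold higher (2.44 to 2.73). The lanes at 1.5 h did not overlap those of any other library. Uniquely placed gene reads of B230118H07Rik were 2.29-fold lower at 1.5 h than in control cells (1.86 to 2.83). Junction reads of Rag1 and Rag2 together, 31 at 1.5 h against 69 in control cells, were 2.1-fold lower (1.36 to 3.33). In control cells B230118H07Rik had 6155 gene reads that were not uniquely placed and 320 that were, 175 of these outside its exons. How the summed reads divide between Rag1, Rag2 and B230118H07Rik was not tested. The next gene past Rag1, Traf6, starts 28928 bases away and had 119 CPM at 1.5 h and 131 CPM in control cells.

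**Figure D2:**
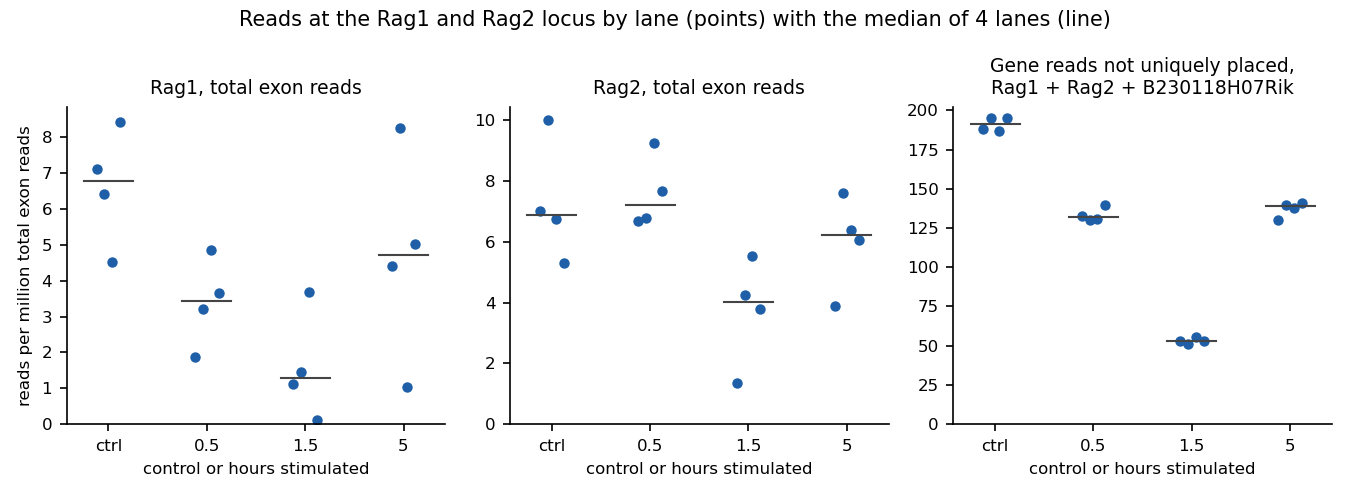
Reads per 1000000 total exon reads at the Rag1 and Rag2 locus in each of 4 lanes (points) with their median (line), for total exon reads of Rag1, of Rag2, and for gene reads not uniquely placed summed over Rag1, Rag2 and B230118H07Rik. The lanes of the sum form tight groups, 51.2 to 55.7 at 1.5 h against 187 to 195 in the control, where the single genes scatter.

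The 5 genes with at least 20 CPM in every library whose 3 log2 ratios against control lay nearest those of Rag1, among 7141 features, were Il16, S1pr4, Tifa, Ptger4 and 1600014C10Rik. Their Euclidean distances on the log2 scale were 0.758 to 0.917, so none was close. Il16, a cytokine precursor, had 65.2 CPM at 1.5 h and 157 CPM in control cells, and 115 CPM at 5 h.

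Dntt encodes terminal deoxynucleotidyl transferase, which adds nucleotides to coding ends and is typical of early lymphoid cells. It was the highest member per length in control cells, at 64.8 CPM per kilobase of exon, and its exon reads were lower at each later time. Its level was 138 CPM in control cells (lanes 136 to 140), 121 CPM at 0.5 h (119 to 123), 93.1 CPM at 1.5 h (91.2 to 94.6) and 48 CPM at 5 h (44.9 to 52.5). No library's lanes overlapped those of another. Between 5 h and 1.5 h, the longest interval between samples, exon reads were 1.94-fold lower (1.82 to 2.06).

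Reads inside the gene but outside its exons took another course. They came to 41.4 per 1000000 exon reads in control cells, 29.4 at 0.5 h, 15.7 at 1.5 h and 24.3 at 5 h. They were thus lowest at 1.5 h, when they were 2.64-fold lower than control (2.38 to 2.92) and exon reads were 1.48-fold lower (1.41 to 1.55). At 1.5 h Dntt was 1 of the 0.355% of 7050 features called lower by the same rule in reads outside exons. At 5 h they were 1.7-fold lower than control (1.56 to 1.86), while exon reads were 2.87-fold lower (2.71 to 3.04).

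Between 5 h and 1.5 h the classes went in opposite directions. Reads outside exons were 1.55-fold higher at 5 h (1.38 to 1.73), where the median of all 7177 features at that floor was a log2 ratio of 0.08, and exon reads were lower as given above. Junction reads, 1370 in control cells, 1187 at 0.5 h, 864 at 1.5 h and 451 at 5 h, followed the exon reads. Of the reads outside exons, 494 of 513 at 1.5 h and 1404 of 1431 in control cells were uniquely placed, and no listed feature overlaps Dntt. Reads outside exons can come from unspliced RNA or from exons missing in the gene model, and the tables do not separate these.

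**Figure D3:**
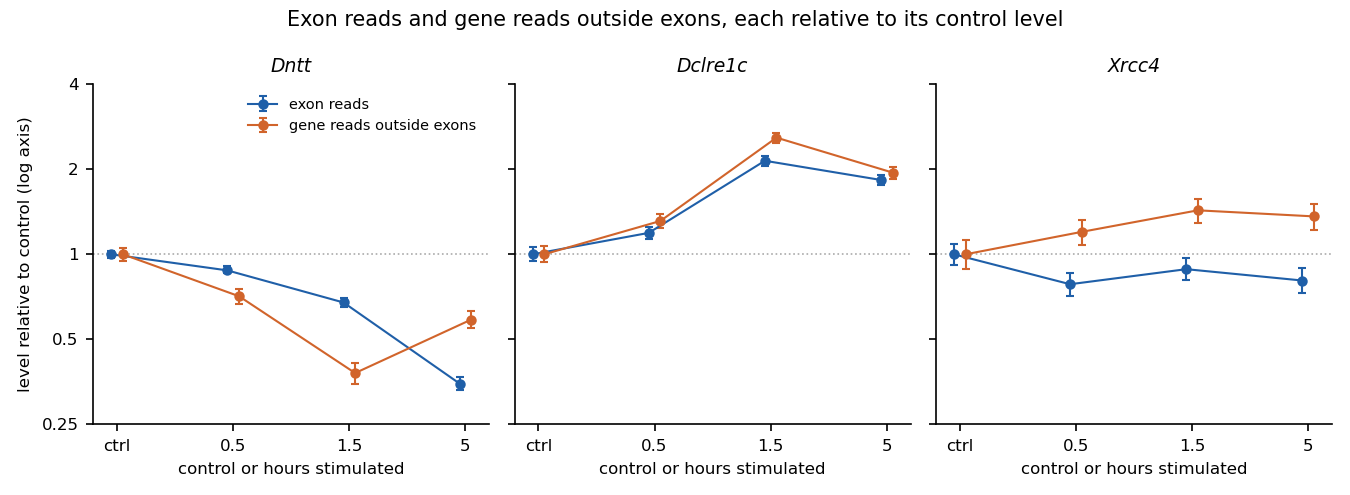
Exon reads (blue) and gene reads outside exons (orange) of Dntt, Dclre1c and Xrcc4 relative to their own control level (log axis), with exact Poisson 95% intervals of each level, in 1 library per condition. For Dntt the reads outside exons are lowest at 1.5 h and the exon reads at 5 h. For Dclre1c both classes are highest at 1.5 h. For Xrcc4 the points of the classes lie on opposite sides of the control, but the interval of its exon ratio at 1.5 h, 0.787 to 1.01, contains 1.

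The next feature below Dntt on chromosome 19 is Blnk itself, 34740 bases away. Blnk had 3516 to 3806 CPM in the 4 libraries, a level that includes the BLNK_ERt2 construct. At 5 h the summed level of myeloid markers, carried by Itgam, was also lower, at 39.6 CPM against 73.5 CPM in control cells, and Bst1, a bone marrow stromal antigen of B cell precursors, had 15.4 CPM against 32.3 CPM. The summed pre-B and B lineage markers were 11194 CPM at 5 h and 13291 CPM in control cells. The part of these in the level of Dntt was not tested. The genes nearest Dntt in their 3 log2 ratios were Syndig1l, Spib, Kif17, Gfra2 and Plxdc1, at distances of 0.277 to 0.449. Spib, an Ets family transcription factor of B cells, had 26.5 CPM at 5 h and 64 CPM in control cells.

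Dclre1c encodes Artemis, the nuclease that opens hairpin coding ends, and was the 1 member clearly above control. Its level was 35.6 CPM in control cells (lanes 32.1 to 39.2), 42.4 CPM at 0.5 h (39.4 to 45.5), 76.4 CPM at 1.5 h (73.9 to 78.9) and 65.3 CPM at 5 h (64 to 68.5). The lanes of the 4 libraries did not overlap. At 5 h it was 1.83-fold the control (1.71 to 1.97), short of the 2-fold rule.

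For Dclre1c the reads outside exons moved with the exon reads. They came to 27.2 per 1000000 exon reads in control cells, 35.7 at 0.5 h, 70.5 at 1.5 h and 53 at 5 h, and were 2.59-fold the control at 1.5 h (2.4 to 2.8). At that time 2.11% of features were called higher in reads outside exons. Junction reads differed less: 335 at 1.5 h against 207 in control cells, which is 1.71-fold (1.44 to 2.05). With a log2 ratio of 0.69, Dclre1c was not called in junction reads. Dclre1c overlaps Suv39h2, a histone methyltransferase gene, over 20.8% of its span, and Suv39h2 had 17.2 CPM at 1.5 h and 12.6 CPM in control cells. Between 75.1 and 77.5% of the exon reads of Dclre1c were uniquely placed. How many reads the 2 genes share cannot be told from the tables.

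The nearest genes to Dclre1c were Irs1, Naa25, Nop2, Nolc1 and Ptpn6, at distances of 0.201 to 0.266. Irs1, an adaptor of insulin and IL-4 receptors, had 370 CPM at 1.5 h and 169 CPM in control cells. Nop2 and Nolc1 encode nucleolar proteins. Nop2 had 138 CPM at 1.5 h and 68.1 CPM in control cells.

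Prkdc encodes the catalytic subunit of DNA-PK, the kinase that recruits and activates Artemis, and did not share the change of Dclre1c. It had 127 CPM in control cells, 132 at 0.5 h, 129 at 1.5 h and 128 at 5 h, and its lanes overlapped at every time. At 1.5 h the interval of its ratio to control was 0.973 to 1.06. Its neighbour Mcm4, a subunit of the replicative helicase, lies 466 bases away on the other strand and had 240 CPM at 1.5 h and 231 CPM in control cells.

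Xrcc5 and Xrcc6 encode Ku80 and Ku70, the ring that loads onto broken ends. Xrcc6 was somewhat lower at every time, with 125 CPM in control cells, 107 at 0.5 h, 95.8 at 1.5 h and 102 at 5 h. The lanes of each stimulated library lay below all control lanes, and the ratio at 1.5 h was 1.3-fold lower (1.25 to 1.37). Xrcc5 had 53.9, 50.1, 49.2 and 49.6 CPM in the same order and its lanes overlapped those of the control at every time. The Xrcc6 feature overlaps Desi1, a gene of a SUMO peptidase, over 79.1% of its span, and 44.3 to 47% of its exon reads were uniquely placed. Its log2 ratio at 1.5 h was -0.35 in uniquely placed reads and -0.38 in total reads.

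The ligation step uses DNA ligase IV, its partner XRCC4 and the filament protein XLF, encoded by Lig4, Xrcc4 and Nhej1. Lig4 had a dip at 1.5 h: 32.1 CPM in control cells (lanes 31.2 to 33.2), 33.8 at 0.5 h (30.1 to 36), 21.2 at 1.5 h (20.1 to 23.1) and 35.6 at 5 h (31.4 to 38.1). The 4 lanes at 1.5 h lay below all lanes of the other libraries. At 1.5 h Lig4 was 1.51-fold lower than control (1.37 to 1.67), and at 5 h it was 1.68-fold higher than at 1.5 h (1.52 to 1.85). Neither ratio reached the 2-fold rule. Its exon reads were 100% uniquely placed after rounding. Abhd13, 21 bases away, was not lower at 1.5 h, with 43.3 CPM at 1.5 h and 37.8 CPM in control cells.

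Xrcc4 and Nhej1 were the low members of this step. Xrcc4 had 16.6 CPM in control cells, 13 at 0.5 h, 14.7 at 1.5 h and 13.4 at 5 h, and was 1.28-fold lower than control at 0.5 h (1.13 to 1.45). Its reads outside exons were higher than control, at 8.66 per 1000000 in control cells, 10.4 at 0.5 h, 12.4 at 1.5 h and 11.8 at 5 h. At 1.5 h these were 1.43-fold higher (1.23 to 1.66). Of them, 162 of 299 in control cells and 236 of 403 at 1.5 h were uniquely placed, and the uniquely placed ones were 1.54-fold higher. Xrcc4 spans 315582 bases and overlaps Tmem167 over 486 bases, and Tmem167 had 93 CPM at 1.5 h and 79.7 CPM in control cells. Xrcc4 also overlaps the antisense feature Gm4117 over 35.9% of its span and the small feature Gm24498. Gm4117 had 0.0295 to 0.065 CPM of exon reads and Gm24498 had 0. Nhej1 had 2.66 to 3.36 CPM, and each interval of its exon-read ratios against control contained 1. Its reads outside exons were 1.38-fold the control at 5 h (1.09 to 1.76), and their intervals at 0.5 and 1.5 h contained 1. Its junction reads were few, at 33 in control cells, 16 at 0.5 h, 16 at 1.5 h and 27 at 5 h. They were 2.02-fold lower than control at 0.5 h (1.08 to 3.94) and 1.95-fold lower at 1.5 h (1.04 to 3.79).

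**Figure D4:**
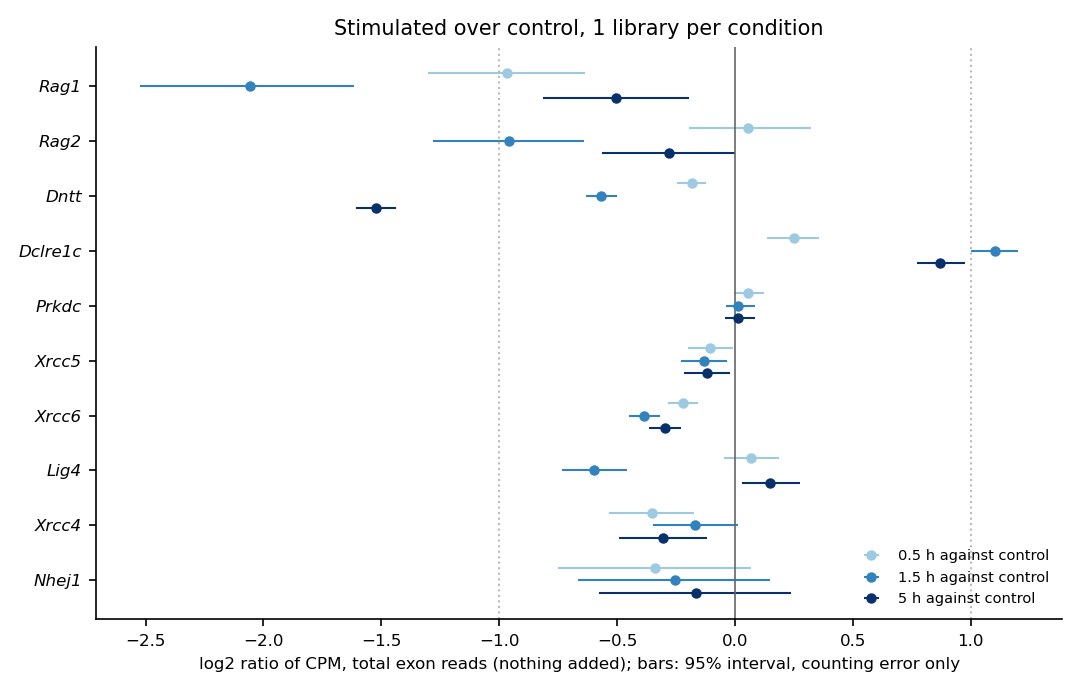
Log2 ratio of CPM in stimulated over control libraries for the 10 genes (points) at 0.5, 1.5 and 5 h, with exact 95% intervals of counting error (bars) and dotted lines at 2-fold. Nothing was added to the CPM, so low genes lie farther out than with the added 1 CPM of the call rule; Dntt at 5 h, Rag1 and Dclre1c at 1.5 h were called.

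The lanes of a library measure how often the same library gave a different value, not how cultures differ. By that measure 4 of the 9 members at 5 CPM had lanes outside the control's range at 0.5 h, 5 at 1.5 h and 4 at 5 h. Among all features at 5 CPM the shares were 27.4%, 52.1% and 54.2%, so separated lanes are common here. At 1.5 h the 5 were Rag1, Dntt, Xrcc6 and Lig4 below and Dclre1c above. Dntt, Dclre1c and Xrcc6 were separated at all 3 times.

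The order of levels per kilobase of exon changed with time. In control cells it ran Dntt at 64.8 CPM per kilobase, Xrcc6 at 27.9, Xrcc5 at 21.1, Prkdc at 9.6, Lig4 at 7.55, Xrcc4 at 3.93, Dclre1c at 3.82, Nhej1 at 3.19, Rag2 at 2.12 and Rag1 at 1. The lanes of Xrcc4 and Dclre1c overlapped, as did those of Dclre1c and Nhej1 and those of Nhej1 and Rag2. At 1.5 h Dclre1c stood above Lig4, at 8.2 against 4.99 CPM per kilobase. At 5 h Dntt, at 22.6 CPM per kilobase, was level with Xrcc6 at 22.7, and their lanes overlapped. The values of Rag1 and Rag2 rest on exon reads that were mostly not uniquely placed. Any of their reads counted under B230118H07Rik are missing from these values, so the low rank of both genes is uncertain.

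Other genes of the repair network stayed within 2-fold. None of the 9 accessory end-joining factors found was called in any comparison. Neither was any of 14 genes of break sensing, 8 of alternative end joining or 16 of homologous recombination. Of all 9589 features that reached 5 CPM, 1.86% were called in at least 1 of the 5 comparisons. A count of 0 thus does not set these lists apart from other features. The median log2 ratios of these lists at 1.5 h were -0.14, 0.02, -0.02 and -0.08, beside -0.01 for all 10996 features at 1 CPM. Among accessory factors Polm, a polymerase that fills gaps at ends, had 5.06 CPM at 1.5 h and 8.11 CPM in control cells. Among sensors the checkpoint kinases Atm and Atr had 135 and 114 CPM at 5 h, against 98.6 and 82.9 CPM in control cells. Lig1 and Xrcc1, both of alternative end joining, had 177 and 97.1 CPM at 5 h, against 245 and 133 CPM in control cells. Rad51c, of homologous recombination, had 13.3 CPM at 5 h and 17.9 CPM in control cells.

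Among 7 partners of the recombinase, none was called, beside the same 1.86% of all features. Vprbp, the substrate receptor of a ubiquitin ligase that binds RAG1, had 55.2 CPM at 1.5 h and 40.5 CPM in control cells. Kpna2, an importin that binds RAG1, had 80.6 CPM at 1.5 h and 59.5 CPM in control cells.

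Of 17 transcription factors known to bind recombinase genes, 16 were found. Of these, 4 were called in at least 1 of the 5 comparisons, as were 1.86% of the 9589 features that reached 5 CPM. The list was chosen with earlier results of these data in view, so its count is no test against that share. Irf4 was called higher at 1.5 and 5 h, with 445 and 347 CPM against 142 CPM in control cells. Ikzf3, which encodes the Ikaros family protein Aiolos, was called higher at 5 h, with 232 CPM against 115 CPM. Gfi1b, a repressor of Rag transcription, was called lower at 5 h, with 2.15 CPM against 5.68 CPM. Bcl11a was called lower between 5 h and 1.5 h, with 88.7 CPM against 186 CPM. The median log2 ratio of the 16 factors against control was 0.09 at 1.5 h and 0.11 at 5 h, with factors on each side. At 1.5 h they ran from -0.82 to 1.64, with 11 above 0 and 5 below. At 5 h they ran from -1.09 to 1.28, with 10 above 0 and 6 below.

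Genes that p53 induces after DNA breaks were mostly level, and 7 of 10 reached 5 CPM. Trp53inp1 was the 1 called, higher between 5 h and 1.5 h, where 0.54% of all features were called in either direction. It had 427 CPM at 5 h against 206 CPM at 1.5 h. Its control level was 366 CPM and its level at 0.5 h 335 CPM, so, like the sum over the Rag locus, it was lowest at 1.5 h. Sesn2 had 27.9 CPM in control cells, 35.4 CPM at 0.5 h and at 1.5 h, and 19.3 CPM at 5 h.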

How the data were processed

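Per the labels' protocols, poly(A) RNA was prepared with TruSeq or NEBNext reagents, and which library had which is not said. The authors deposited raw counts per feature and lane, per the file headers, as unique and total exon reads, gene reads and exon-exon reads. They also give each feature's exon length and position. The submitters' processing notes name CASAVA 1.8.2 and mm10. The sources used here name no aligner or counting program and do not state the use of strand.

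The 3 tables hold the same control counts, and 0 lane columns were left unmatched. Lanes carry 1 index per condition and were summed. CPM is per 1000000 total exon reads. Reads outside exons are gene reads minus exon reads, per 1000000 total exon reads. Levels carry exact Poisson intervals. A count of 0 allows up to 3 counts, or 0.0869 to 0.0976 CPM. No molecular identifiers are named, so reads can be copies of 1 molecule. The planned comparison was a ratio with no test. Simulated counts were used to check the scripts. Named genes were all members, called genes of each list or otherwise its 2 with the largest ratios against control, the 5 nearest patterns of each called member, and neighbours. Not every gene so named is reported. Members, lists and motifs were chosen with earlier results of these data, and the LyF-1 motif with the sequences, in view.

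Alternatives were unique exon reads, total gene reads, TMM factors (edgeR 4.0.16), DESeq2 1.42.0 size factors, pseudocounts, floors, a 1.5-fold rule, leaving out each lane and same-lane pairs. Python 3.11.15, pandas 2.3.3, numpy 2.4.6, scipy 1.17.1, matplotlib 3.10.9 and R 4.3.3 were used. Coordinates are those of the tables. They were the same in GENCODE vM21 for 7 of 10 members, and promoters come from RefSeq.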

Additional observations from a re-analysis of the deposited data

Results flagged for a closer look

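Lane values were checked in 40 groups of 4 lanes, and chance flags about 1 in 20 such groups. In 4 groups 1 lane stood apart from the others. Dclre1c at 5 h had a highest lane of 68.5 CPM, with the others at 64 to 64.4 CPM. Prkdc at 5 h had a lowest lane of 123 CPM, with the others at 130 CPM. Xrcc4 had a lowest lane of 12.2 CPM at 0.5 h, with the others at 13.2 to 13.3 CPM, and of 10.8 CPM at 5 h, with the others at 14 to 14.6 CPM.

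Lig4 was above control at 5 h in 4 of 4 same-lane ratios, with a log2 ratio of 0.14, and below control at 1.5 h in 4 of 4, with a log2 ratio of -0.57. Lanes are no replicates of a condition, and the difference was not tested.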

How the results depend on the processing

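The calls of Dclre1c at 1.5 h and of Dntt at 5 h held under all 15 alternatives listed for them, with log2 ratios of 1.003 to 1.201 and of -1.549 to -1.317. In unique junction reads, an alternative added after seeing the data, the call of Dclre1c ended (0.69), that of Rag1 ended under the floor (-0.45) and that of Dntt held (-1.38). The call of Rag1 at 1.5 h held under 12 of the same 15. It ended in unique exon reads, which put Rag1 under the floor at a log2 ratio of -0.52, with 5 CPM added (-0.82) and at a floor of 20 CPM, so that 1 member, Dclre1c, was called in each. No called ratio reversed.

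In the other comparisons the count of members changed as follows. A 1.5-fold rule called 1 member (Rag1) at 0.5 h, 2 (Dntt and Dclre1c) at 5 h, 3 (Rag2, Dclre1c and Lig4) between 1.5 and 0.5 h and 2 (Dntt and Lig4) between 5 and 1.5 h. Rag2 was the 1 member called between 1.5 and 0.5 h with 0.1 CPM added, and Rag1 the 1 between 5 and 1.5 h with a floor of 1 CPM or none. Leaving out each lane gave 0 to 1 members at 0.5 h, 2 to 3 at 1.5 h and 0 to 1 between 5 and 1.5 h. The added member was Rag1, Rag2 and Rag1 in these comparisons, each without lane 3. In unique reads outside exons, also added later, 1 member (Dclre1c) was called at 5 h, where total reads gave 0. Rag1, Rag2 and Nhej1 rest on the fewest reads, and depth limits them most.

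Over all features, adding 5 CPM left 19 calls at 0.5 h, 38 at 1.5 h, 36 at 5 h, 20 between 1.5 and 0.5 h and 32 between 5 and 1.5 h, against 29, 81, 70, 39 and 51 with 1 CPM. A floor of 20 CPM left 17 at 0.5 h and 45 at 5 h. The 1.5-fold rule gave 78, 510, 494, 342 and 323 in the same order. Labels share lane numbers, so a replicate block was also taken as the mean of same-lane log2 ratios. A shared lane is no pairing of cells, and under the block 0, 2, 1, 0 and 0 members were called, as without it. No library has a replicate, so the spread between cultures is not known.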
